A study of Mus musculus with 8 samples.

Results

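RNA recovered with an antibody against GFP was compared with input RNA in mouse embryonic stem (ES) cells of the Dazl-GFP line. The comparison uses 6 of the 8 arrays of the study, chosen by their titles: 3 inputs and 3 GFP immunoprecipitations (IPs). The other 2 arrays, IPs of the poly(A) binding protein PABP1, entered the shared estimate of spread and 1 direct comparison. Input and IP came from the same kind of cell, a re-derived transgenic ES line kept on γ-irradiated feeder fibroblasts in DMEM with fetal bovine serum, leukemia inhibitory factor (LIF) and the inhibitor pair called 2i. That pair is PD0325901, which blocks the kinase MEK, and CHIR99021, which blocks the kinase GSK3β. Inputs had no antibody step, and the IPs were native, without a stated crosslinking step. Feeder cells add their own RNA to every sample, the cells are 1 re-derived line, and none of the 8 arrays is an IP with a control antibody. Recovery through GFP can therefore not be told apart from recovery in the IP step itself. It is not stated whether the line carries a DAZL protein fused to GFP or GFP as a reporter of Dazl activity. Separate cultures are not stated for the arrays within a group, and the spread that each p-value measures is that between these samples and may be technical.

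DAZL is an RNA-binding protein of germ cells that is known to bind short uridine-rich elements, mostly in the 3′ untranslated regions of mRNAs, and to influence their translation and stability. In RNA immunoprecipitation an antibody pulls a protein out of a lysate together with the RNA attached to it, directly or through other proteins. The question the comparison addresses is which RNA species come down with GFP. Each array gives an RNA's share of a sample and not its amount, so an RNA that is higher in the IP makes up more of the recovered RNA than of the input. Levels below are log2 signals of a probe relative to the 75th percentile of its array, and a difference is the mean of the 3 GFP IPs minus the mean of the 3 inputs on that log2 scale, with the standard error (SE) and the Benjamini-Hochberg adjusted p of limma over all genes tested.

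The share of the 43379 spots with a signal well above background was 41.5% to 50.7% on the 6 arrays, and 0 spots were saturated. Of 14670 genes tested, 11606 were well above background on all 6 arrays, 683 on all 3 inputs but not on every GFP IP, and 1049 on all 3 GFP IPs but not on every input. The remaining 1332 entered through the PABP1 IPs alone. The arrays lie on 2 slides: input 3 and GFP IPs 1 and 3 on slide 1, and inputs 1 and 2 and GFP IP 2 on slide 2. ES markers fixed for the label were present, with all 11 tested members well above background on every array. Dazl stood at −0.23, −0.36 and −0.61 on the inputs and at 3.13, 3.84 and 3.27 on the GFP IPs, so the groups were far apart.

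Recovery was graded and not a matter of a few genes. Of the 14670 genes, 3109 were higher in the GFP IP (21.2%) and 6380 lower (43.5%) at an adjusted p under 0.05 by limma, 64.7% in all. Differences of at least 2-fold were found for 1953 higher and 3893 lower genes, of at least 4-fold for 636 and 467, of at least 8-fold for 120 and 96, and of at least 16-fold for 7 and 14. The upper tail was the longer one relative to the median gene. The 1st, 5th, 25th, 75th, 95th and 99th percentiles of the difference lay at −2.17, −1.35, −0.60, 0.86, 2.43 and 3.44 from it. For 3370 genes (23.0%) every GFP IP was above every input, for 6792 (46.3%) every GFP IP was below, and for 4508 the groups overlapped.

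The balance of the calls depended on the scale. The median gene itself stood at −0.52 and at 0.02 when each array was scaled to its median. On that scale 4443 genes were higher (30.3%) and 3118 lower (21.3%), so that 58.8% of the called genes were higher, against 32.8% with the 75th percentile. Median scaling raises every gene's difference by the same amount, so the overlap of the calls was largely set in advance. All 3109 higher genes stayed higher and 3118 of the lower genes stayed lower. A further 3262 lower genes lost their call, and 1334 uncalled genes became higher. Medians of gene groups are therefore given relative to the median gene. Counts within a gene group are to be read against the 21.2% higher and 43.5% lower among all genes. Every one of the 3109 higher and 6380 lower genes kept its sign within slide 1 and within slide 2. The calls came from these same arrays, so this is no separate check.

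**Figure D1:**
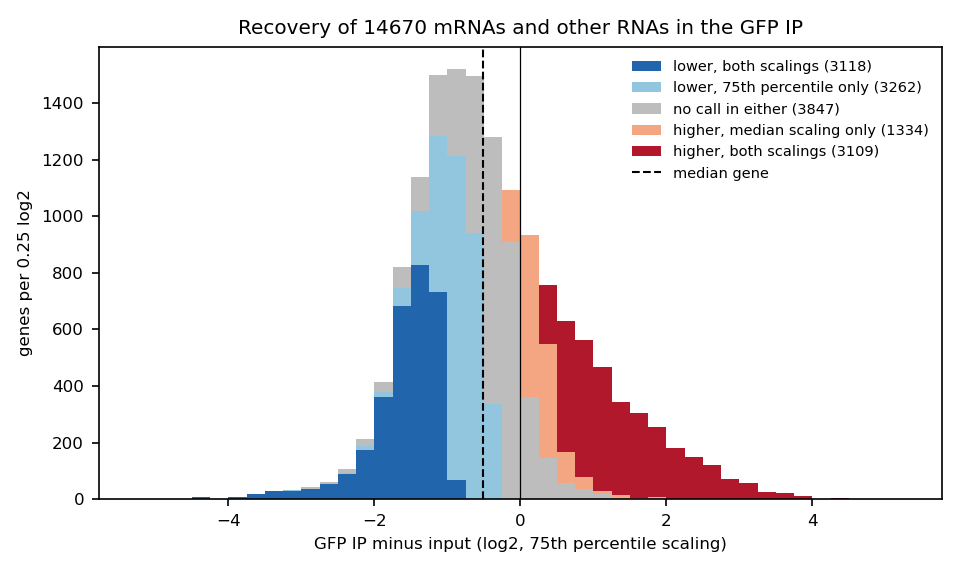
Histogram of the difference GFP IP minus input (x axis, log2) over 14670 genes in steps of 0.25 (y axis, number of genes), coloured by the call with 75th percentile scaling and with median scaling. The dashed line is the median gene at −0.52; 3109 genes were higher and 3118 lower with both scalings.

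Of the 20 highest genes that meet the naming rule, 8 (Siah2, Dck, Dr1, Tex30, Coq10b, Cd38, Cggbp1 and Dnajc12) lay between 3.90 and 4.98, and several of those that follow are described here. Eef1e1, which encodes a scaffold protein of the tRNA synthetase complex, read 2.52, 2.36 and 1.97 on the inputs and 6.13, 6.21 and 5.97 on the GFP IPs. It was 14.2-fold higher (3.82 ± 0.17 SE, adjusted p = 1.46e-05), and the 2 groups lay far apart. Cyp51, a lanosterol demethylase of sterol synthesis, read −0.13, 0.06 and 0.30 against 3.75, 3.61 and 3.86, a 12.7-fold difference (3.66 ± 0.15). The other probes of Cyp51 were lower but of the same sign, at 1.92 and 2.54. The naming rule required the same sign of other well detected probes. For genes named by it, here and below, that sign is therefore no further support. Ak4, a mitochondrial adenylate kinase, stood at 3.63 ± 0.15, and Tsnax, which encodes the translin partner of a small-RNA nuclease, at 3.67 ± 0.22.

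Tfdp1, the dimer partner of E2F factors in the cell cycle, read 1.34, 1.37 and 1.18 on the inputs and 4.94, 4.93 and 4.93 on the GFP IPs, which is 12.4-fold (3.64 ± 0.10, adjusted p = 1.30e-05). The IP replicates of Tfdp1 hardly differed, and a second probe gave 3.40. Tgif1, a homeodomain repressor of TGF-β signalling, rose from −1.74, −2.00 and −1.84 to 1.86, 1.73 and 1.53 (3.57 ± 0.13). Gabpb1, a subunit of the ETS-type factor GABP, was at 3.59 ± 0.20 with a second probe at 2.06. The ER-membrane ubiquitin-conjugating gene Ube2j2 (3.59 ± 0.16), the histone N-terminal acetyltransferase gene Naa40 (3.56 ± 0.11) and Ttc33 (3.73 ± 0.11) were also among the 20 highest genes that meet the naming rule. Dmd, the dystrophin gene, was at 3.56 ± 0.12 by its brightest probe, but no GFP IP showed its other probes well above background, and the mean of its probes (0.22) did not pass.

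**Figure D2:**
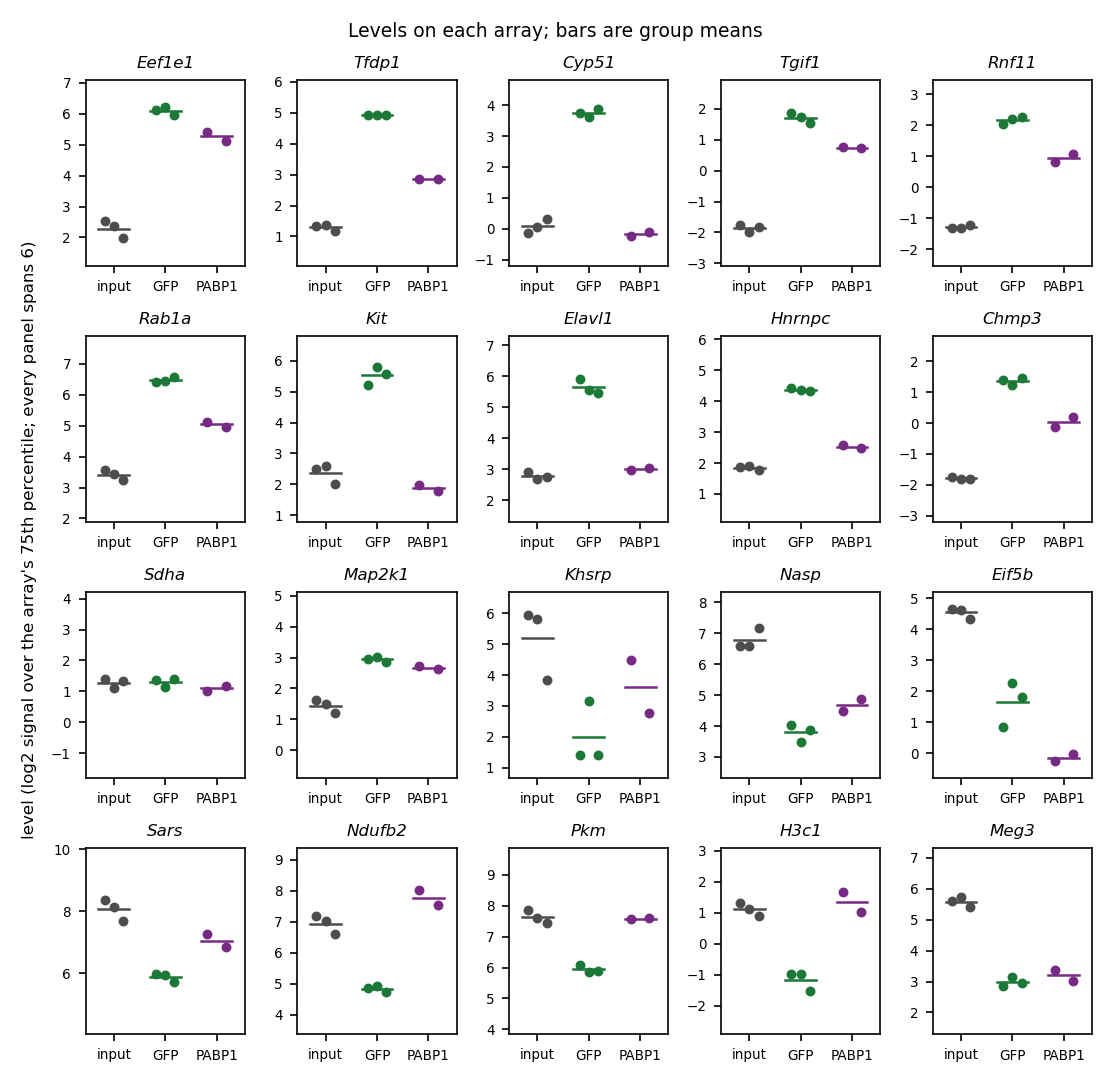
Level of 20 named genes on each array (y axis, log2 level relative to the 75th percentile of the array; every panel spans 6 units) for 3 inputs, 3 GFP IPs and 2 PABP1 IPs; points are arrays and bars are group means. In every panel but that of Sdha the GFP IPs and the inputs do not overlap, with 11 genes above and 8 below input.

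Of the 20 lowest genes that meet the naming rule, 8 (Golgb1, Gdap10, Malat1, Mink1, Marf1, Snhg11, Tpr and Nemf) lay between −4.98 and −3.41, and the others include Syt10, Cdk5r2 and Olfr462. Nasp, a histone chaperone, fell from 6.58, 6.58 and 7.17 on the inputs to 4.02, 3.48 and 3.87 on the GFP IPs (−2.99 ± 0.23, adjusted p = 5.89e-05), and a second probe gave −2.25. Eif5b, which joins the ribosomal subunits at the start of translation, fell from 4.66, 4.63 and 4.34 to 0.85, 2.28 and 1.83 (−2.90 ± 0.34), with 4 other probes between −3.12 and −0.80. In both genes the groups were separate, and in Eif5b the IPs spread more than the inputs. The nucleolar gene Nol8 (−3.24 ± 0.32), Paxbp1 (−2.98 ± 0.20), the helicase-like gene Zgrf1 (−3.24 ± 0.47) and the pseudogene transcript Pisd-ps3 (−2.84 ± 0.13) were lower as well.

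Some of the lowest values moved with the slide. Khsrp, which promotes decay of AU-rich mRNAs, read 5.93 and 5.80 on inputs 1 and 2 but 3.83 on input 3, and 3.14 on GFP IP 2 but 1.42 and 1.43 on GFP IPs 1 and 3. Its difference was −3.19 ± 0.77 overall (adjusted p = 0.00871), with a second probe at −1.02. The difference was −2.41 within slide 1 and −2.72 within slide 2, so Khsrp was lower on both. Cyth4, an exchange factor for ARF GTPases, showed the same split, with −3.29 within slide 1, −2.04 within slide 2 and −3.38 ± 0.89 overall. H1f10, a linker histone, was at −3.30 ± 0.94 (adjusted p = 0.0176), −2.89 within slide 1 and −2.22 within slide 2. Its call ended when input 1, input 2, GFP IP 1 or GFP IP 3 was left out, at adjusted p from 0.0574 to 0.0613. A second H1f10 probe gave −0.12.

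Genes for RNA-binding proteins that act on other mRNAs were recovered well. Of 30 tested SR and hnRNP genes, which encode regulators of splicing, 15 were higher and 5 lower, with a list median of 1.30 relative to the median gene. Hnrnpc, the nuclear protein that coats nascent transcripts, rose from 1.86, 1.92 and 1.79 to 4.42, 4.35 and 4.32 (2.51 ± 0.10, adjusted p = 1.30e-05), with a second probe at 1.97. Hnrnpll, a splicing regulator first known from lymphocytes, was at 3.18 ± 0.25. The SR genes Srsf6 (2.23 ± 0.35) and Srsf1 (2.10 ± 0.18) were chosen after their values were seen, because the stem Srsf had the highest median of the 158 symbol stems with at least 10 tested genes, 1.67 relative to the median gene, with 7 of 11 members higher and 0 lower. Hnrnpu, a nuclear scaffold protein, went the other way at −1.40 ± 0.12, a call that ended with normexp background correction. A second Hnrnpu probe gave −0.21.

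In a list of 19 genes named for the PUF, CPEB, ELAV and ZFP36 families, which bind 3′ untranslated regions, 11 were higher and 1 lower. The lower one was Khsrp, which the list holds although it belongs to none of these families. The relative median was 1.51. Elavl1, which encodes the stabilising protein HuR, read 2.90, 2.68 and 2.73 on the inputs and 5.93, 5.55 and 5.48 on the GFP IPs, a 7.37-fold difference (2.88 ± 0.15, adjusted p = 1.98e-05). The other probes of Elavl1 gave 1.72 and 1.25. Genes of deadenylation, which shortens poly(A) tails, were split: 8 of 19 were higher and 7 lower (11 and 4 with median scaling), with a relative median of 0.66. Btg3, an adaptor that brings the deadenylase to its targets, was at 2.54 ± 0.12 and the catalytic subunit gene Cnot6 at 1.53 ± 0.23, while the scaffold-associated subunit gene Cnot3 was at −1.70 ± 0.23.

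The microRNA machinery resembled all genes, with 4 of 18 higher, 8 lower (6 and 4 with median scaling) and a relative median of 0.03. Lin28a, which blocks maturation of let-7 microRNAs, was higher (1.12 ± 0.10), as was the silencing adaptor gene Tnrc6c (1.31 ± 0.14). The gene for the exporter of microRNA precursors, Xpo5 (−2.17 ± 0.35) and the uridylyltransferase gene Tut7 (−2.23 ± 0.14) were lower. Further probes well above background on all 6 arrays gave −0.58 for Xpo5 and −0.91 for Tut7. The core spliceosome was also mixed, with 9 of 34 higher and 16 lower (11 and 7 with median scaling), with Snrpb (1.24 ± 0.21) above and Sf3b3 (−2.51 ± 0.16) below input. The small Lsm proteins, which bind RNA ends for decay and splicing, were a stem singled out after the values were seen. Of 13 genes 9 were higher and 2 lower (11 and 0 with median scaling). They were led by Lsm1 (1.80 ± 0.15), which acts in mRNA decay. The calls of Cnot6, Lin28a, Tnrc6c, Snrpb and Lsm1 ended with normexp background correction.

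**Figure D3:**
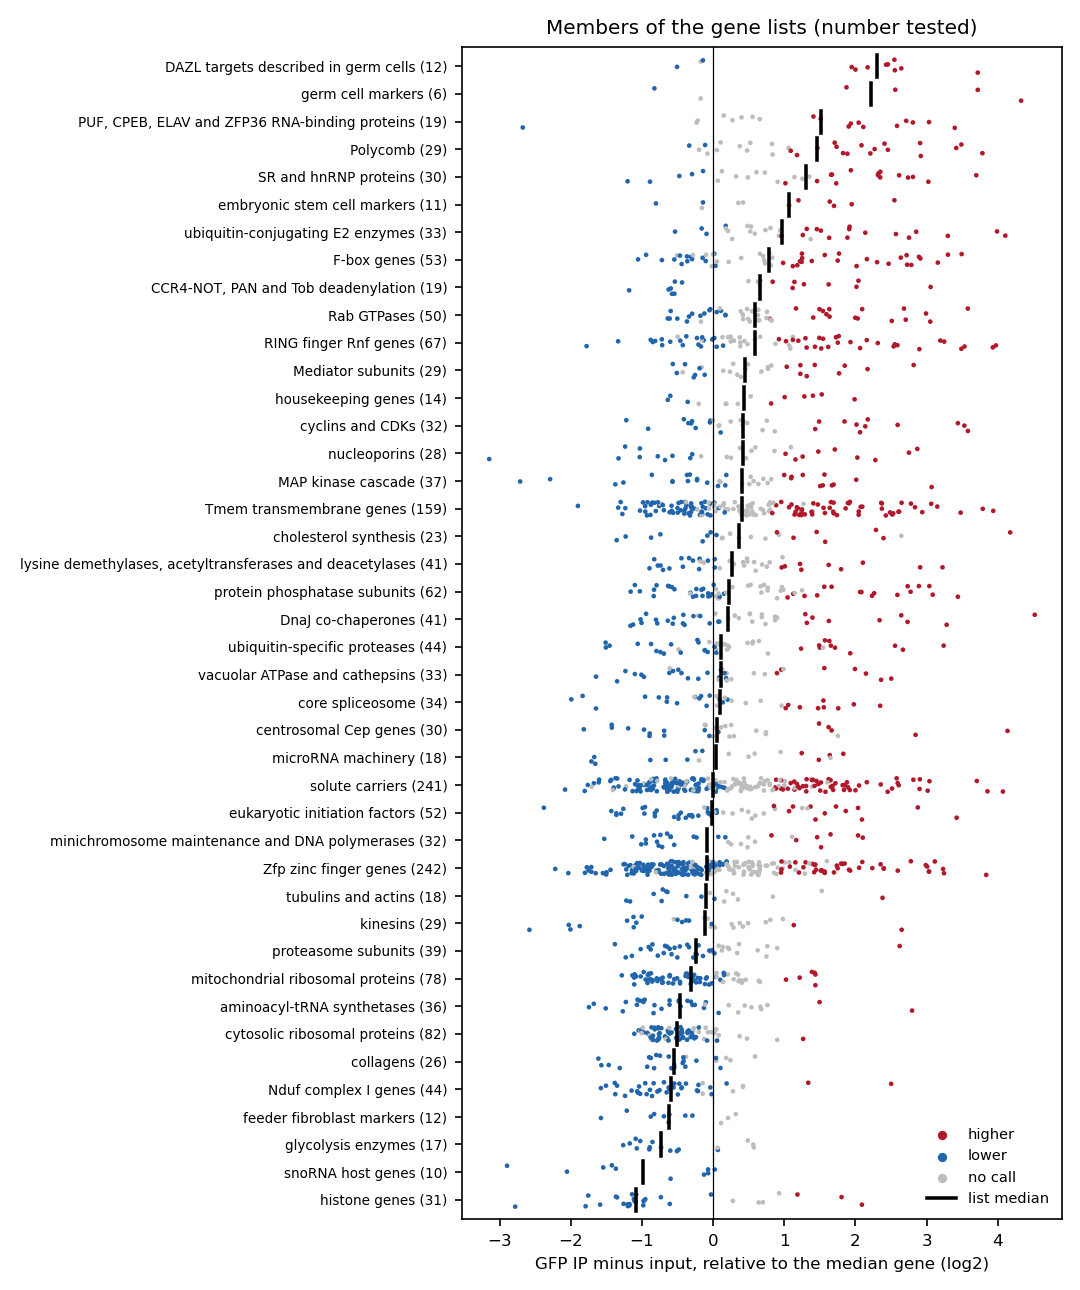
Difference GFP IP minus input relative to the median gene (x axis, log2) for each tested member of 42 gene lists (y axis, number tested in brackets); red points were called higher, blue lower and grey neither, and black bars are list medians. Medians run from 2.30 for described DAZL targets to −1.09 for histone genes, and within each of these lists members lie on both sides of the median gene.

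The ubiquitin system was recovered in parts. Of 33 E2 conjugating enzyme genes 16 were higher and 4 lower (relative median 0.96), of 53 F-box genes, which choose substrates for SCF ligases, 24 and 14 (0.79), and of 67 RING finger genes named Rnf 28 and 20 (0.59). With median scaling the splits were 23 and 1 for E2 genes, 30 and 4 for F-box genes and 35 and 9 for Rnf genes. Rnf11 rose from −1.33, −1.32 and −1.22 to 2.03, 2.22 and 2.26 (3.46 ± 0.12, adjusted p = 1.30e-05), and Rnf138, a ligase of DNA break repair, stood at 3.42 ± 0.14. The IPs and inputs of Rnf11 were separated by more than 3 log2 units. The other well detected probes of Rnf138 gave smaller differences of the same sign, the smallest at 0.57. Ube2g1, an E2 of ER-associated degradation, was at 2.34 ± 0.11 with a second probe at 2.48, and Fbxo8 at 2.98 ± 0.18. Fbxl17 was at 2.64 ± 0.10, but the mean of its probes did not pass (0.02). Enzymes that remove ubiquitin did not share this: 11 of 44 Usp genes were higher and 17 lower (16 and 9 with median scaling), with a relative median of 0.11. The nucleolar deubiquitinase gene Usp36 (−2.02 ± 0.14) and Usp48 (−2.03 ± 0.11) were lower, each with a second probe at −2.48 and −1.46. Rnf40, a ligase for histone H2B, was lower too (−1.33 ± 0.11), and so was the E2 and E3 hybrid gene Ube2o (−1.05 ± 0.11, a call that ended with normexp).

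Proteasome subunits, the other end of the same pathway, were mostly lower, at 26 of 39, with 1 higher (12 and 3 with median scaling). That 1 was Psma8, which encodes the alpha subunit of the testis proteasome, from 2.56, 2.36 and 2.27 on the inputs to 4.56, 4.42 and 4.52 on the GFP IPs (2.11 ± 0.12, adjusted p = 2.21e-05). Its groups did not overlap. The relative median of the list was −0.24 and turned to 0.02 without a filter on dim probes, where the median gene was lower.

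Membrane traffic genes gave both directions. Of 50 Rab genes, which encode GTPases that direct vesicles, 17 were higher and 15 lower, a split that became 29 and 3 with median scaling, and the relative median was 0.59. Rab1a, which acts between ER and Golgi, read 3.56, 3.43 and 3.23 on the inputs and 6.42, 6.43 and 6.56 on the GFP IPs, 8.37-fold higher (3.07 ± 0.13, adjusted p = 1.34e-05). The second probe of Rab1a gave 3.05. Rab2b, also of the early secretory path, was at 2.54 ± 0.11, and Rab8a, which acts late in exocytosis, at −1.13 ± 0.13, a call lost with normexp. A second Rab8a probe gave −0.33. Of 159 Tmem genes 52 were higher and 58 lower (66 and 23 with median scaling; relative median 0.40), with Tmem128 (3.42 ± 0.18) above and Tmem214 (−1.82 ± 0.18) below input. Solute carriers followed all genes, with 55 of 241 higher, 111 lower (77 and 56 with median scaling) and a relative median of −0.01. The zinc importer gene Slc39a10 was the highest of them that the rule names, at 3.56 ± 0.28.

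Chmp genes of the ESCRT-III complex, which cuts membrane necks, were singled out after the values were seen: 8 of 10 were higher and 1 lower (relative median 1.57). Chmp3 rose from −1.74, −1.80 and −1.82 to 1.38, 1.24 and 1.44 (3.14 ± 0.13), while Chmp2a fell from 4.63, 4.38 and 4.19 to 2.96, 3.09 and 2.87 (−1.43 ± 0.15, lost with normexp). These 2 subunits of 1 complex lay on opposite sides of input. The Tmed cargo receptors were also singled out after the values were seen. Of 10 tested, 5 were higher and 3 lower (6 and 1 with median scaling). Tmed7 (2.96 ± 0.19) lay above and Tmed3 (−1.84 ± 0.15) below input. Of 33 genes of the vacuolar ATPase and the cathepsins 7 were higher and 17 lower (9 and 6 with median scaling; relative median 0.11), from Atp6ap2 (1.99 ± 0.28) to the protective protein gene Ctsa (−2.16 ± 0.14).

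Regulators of chromatin and transcription were divided by class. Polycomb genes, which keep developmental genes silent, were mostly higher, at 17 of 29 with 2 lower and a relative median of 1.47. Pcgf5, a RING partner subunit of Polycomb complex 1, rose from 0.45, 0.56 and 0.40 to 3.66, 3.77 and 3.79 (3.27 ± 0.11, adjusted p = 1.30e-05), and Kdm2b, which brings a Polycomb complex to CpG islands, was at 2.39 ± 0.21. Neither gene's groups overlapped. By contrast the CHD chromatin remodellers, a stem picked after the values were seen, had the lowest median of the 158 stems (−0.92), with 0 of 10 higher and 8 lower (1 and 7 with median scaling). Chd3 was at −2.08 ± 0.20 with further probes at −1.45 and −1.25, and Chd4 at −1.90 ± 0.32 with further probes at −1.25 and 0.03. Of 41 genes for enzymes that acetylate, deacetylate or demethylate lysines 9 were higher (22.0%) and 16 lower (39.0%), near the shares of all genes. With median scaling 14 were higher and 7 lower, and the relative median was 0.27. Zinc finger genes named Zfp were 43 higher and 129 lower of 242 (62 and 57 with median scaling; relative median −0.08), with Zfp516 (2.60 ± 0.12) above input and Zfp773 (−2.74 ± 0.34) below, of which a second, dimmer probe gave 0.28.

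Of 14 tested Klf genes, chosen after the values were seen, 7 were higher and 0 lower (11 and 0 with median scaling). Klf10, an early response gene of TGF-β, rose from 3.73, 3.73 and 3.43 to 6.20, 6.31 and 6.19, 6.07-fold (2.60 ± 0.14, adjusted p = 2.10e-05). Klf11 was at 2.70 ± 0.22, although a second probe gave −0.30. Atf1, a factor of cyclic AMP signalling chosen after its values were seen, was at 3.16 ± 0.12 with a second probe at 3.38. The Mediator complex, which links transcription factors to RNA polymerase, had 9 of 29 members higher and 7 lower (11 and 2 with median scaling; relative median 0.45), led by Med30 (2.30 ± 0.10).

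Signalling and cell cycle genes gave both directions. Of 32 cyclin and CDK genes 11 were higher and 10 lower (15 and 1 with median scaling; relative median 0.42). Ccnb1ip1, a ligase that acts on crossovers in meiosis and whose symbol the list's pattern matched, was at 3.07 ± 0.13, and Cdk10 was at −1.74 ± 0.23. Cdk17 was at 2.93 ± 0.10 by its brightest probe and 0.72 by the mean of its probes, which did not pass. Of 37 genes of the MAP kinase cascade, part of which 2i blocks, 11 were higher and 16 lower (17 and 6 with median scaling; relative median 0.41). Map2k1, which encodes the MEK1 kinase that PD0325901 inhibits, read 1.64, 1.49 and 1.21 on the inputs and 2.96, 3.02 and 2.85 on the GFP IPs (1.50 ± 0.14, adjusted p = 0.00012), a call that ended with normexp. Mapk6 was at 2.56 ± 0.16, but did not pass by the mean of its probes (0.11). Of 62 protein phosphatase genes 17 were higher and 25 lower (24 and 9 with median scaling), and the catalytic subunit gene Ppp1cb was among the higher ones (2.52 ± 0.13).

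Markers of germ cells and of the ES state gave both directions. Of 6 tested germ cell markers 4 were higher and 1 lower (4 and 1 with median scaling), and their differences ran from −1.34 to 3.81. Their summed linear level was 15.9 to 17.7 on the inputs and 125 to 146 on the GFP IPs. That sum was carried mostly by Tex19.1 (mean level 3.58 on the inputs and 6.78 on the GFP IPs). Without Tex19.1 it was 4.54 to 5.43 on the inputs and 19.9 to 23.6 on the GFP IPs, with Dazl included. Prdm1, Dppa3 and Zfp42 were named after their values were seen. Prdm1, which specifies germ cells, was at 2.05 ± 0.21 (lost with normexp) and Dppa3, which protects methylation in the egg, at 1.36 ± 0.21 (lost with normexp). Kit, the receptor for stem cell factor that germ cells need, was no list member and was chosen after its values were seen. It rose from 2.50, 2.58 and 2.02 on the inputs to 5.22, 5.80 and 5.58 on the GFP IPs, 8.97-fold (3.17 ± 0.21, adjusted p = 3.47e-05). Of 11 ES markers 6 were higher and 2 lower (7 and 0 with median scaling). Their summed linear level was 2276 to 4213 on the inputs and 1516 to 2021 on the GFP IPs, a sum carried mostly by Dppa5a. Without Dppa5a it was 546 to 550 on the inputs and 610 to 673 on the GFP IPs. Pou5f1, the factor also called Oct4, was lower at −0.66 ± 0.22 (adjusted p = 0.0341) but had no call with median scaling. Higher ones included Zfp42 (also called Rex1) at 1.18 ± 0.14 and a second probe at 1.39; its call on the first probe ended with normexp. Described DAZL targets had the highest relative median of all lists, 2.30, with 9 of 12 higher and 2 lower, but that list was known from earlier results and is not independent.

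Reference genes lay on both sides of input. Sdha, a respiratory complex II subunit, read 1.39, 1.10 and 1.35 on the inputs and 1.35, 1.14 and 1.39 on the GFP IPs, with the groups overlapping (0.01 ± 0.13, adjusted p = 0.939). Actb was at −0.17 ± 0.32 (adjusted p = 0.657), also with overlap. Of 14 housekeeping genes 6 were higher and 3 lower, with Tbp (1.47 ± 0.12) and Hprt (1.01 ± 0.17) among the higher and Pgk1 (−1.12 ± 0.17) among the lower. These 3 calls ended with normexp. The reference genes also depended on the processing: Sdha passed at −0.60 with the mean of its probes, and Actb at −0.41 with slide as a block.

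Genes of glycolysis and of respiratory complex I were mostly lower. Of 17 glycolysis genes 13 were lower and 0 higher (11 and 3 with median scaling), with a relative median of −0.73. Pkm, the pyruvate kinase of proliferating cells, fell from 7.86, 7.60 and 7.43 on the inputs to 6.09, 5.84 and 5.89 on the GFP IPs (−1.69 ± 0.14, adjusted p = 8.40e-05), with a second probe at −1.33. The muscle enolase gene Eno3 fell likewise (−1.78 ± 0.17). Of 44 Nduf genes, which encode respiratory complex I and its assembly factors, 37 were lower and 2 higher (26 and 2 with median scaling; relative median −0.59). Ndufb2 fell from 7.18, 7.02 and 6.59 to 4.85, 4.93 and 4.73 (−2.09 ± 0.20), whereas Ndufc2 rose from 6.21, 6.19 and 5.83 to 8.01, 8.22 and 7.97 (1.99 ± 0.17), both without overlap. Sterol synthesis was divided within 1 pathway, 7 higher and 8 lower of 23 (11 and 3 with median scaling): Cyp51 and Hsd17b7 (1.88 ± 0.16) were above input, and Tm7sf2 (−1.87 ± 0.25) and Ebp (−1.75 ± 0.23) below.

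mRNAs of the translation apparatus were mostly lower. Of 36 aminoacyl-tRNA synthetase genes 26 were lower and 2 higher (17 and 4 with median scaling; relative median −0.47). Sars, which charges serine tRNA, fell from 8.36, 8.13 and 7.69 to 5.97, 5.93 and 5.70 (−2.19 ± 0.21, adjusted p = 0.000122), and Lars, for leucine, was at −2.26 ± 0.19 with further probes at −2.04 and −1.77. All GFP IPs of Sars lay below all inputs. For mitochondrial ribosomal proteins 78 genes were tested, with 55 lower and 6 higher (28 and 8 with median scaling; relative median −0.31), with Mrpl41 at −1.80 ± 0.13 and Mrps18c at −1.65 ± 0.13; Mrpl32 (0.92 ± 0.17) was higher, but not with normexp. For cytosolic ribosomal proteins 82 genes were tested, with 59 lower and 1 higher. The higher one was Rps4l, which RefSeq lists as a transcribed pseudogene (0.75 ± 0.14, lost with normexp and within slide 2 alone). The relative median of that list, −0.50, turned to 0.04 with quantile normalization, and with median scaling 14 were lower and 2 higher.

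Initiation factors did not move as a block, with 12 of 52 higher, 28 lower (17 and 14 with median scaling) and a relative median of −0.01. Eif1b, a paralogue of the start codon scanning factor, rose from 2.95, 2.86 and 2.43 to 5.71, 5.80 and 5.46 (2.91 ± 0.18, adjusted p = 2.86e-05), and Eif1a was at 2.36 ± 0.11 with a second probe at 2.17. The inputs and IPs of Eif1b did not overlap. The cap-binding inhibitor gene Eif4ebp3 was lower (−1.95 ± 0.12), as was Eif5b. Of 41 genes of DnaJ co-chaperones, which hand substrates to heat shock proteins, 9 were higher (22.0%) and 18 lower (43.9%). These shares were near those of all genes (21.2% and 43.5%). With median scaling 18 were higher and 7 lower, and the relative median was 0.21.

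Histones, replication and nuclear architecture were lower in part. Of 31 histone genes, whose mRNAs mostly carry a stem-loop at the 3′ end in place of poly(A), 23 were lower and 3 higher (19 and 6 with median scaling), and the relative median of −1.09 was the lowest of all lists. H3c1, a replication-dependent H3 gene, fell from 1.31, 1.12 and 0.90 to −0.97, −0.99 and −1.52 (−2.27 ± 0.24, adjusted p = 0.000182). H3f3a, which encodes the variant H3.3 from a polyadenylated mRNA, rose from 5.69, 5.54 and 5.35 to 6.82, 6.92 and 6.71 (1.29 ± 0.14), with 2 further probes at 1.28 and 1.18; the call ended with normexp. Of 32 genes of the replication machinery 18 were lower and 7 higher (11 and 10 with median scaling; relative median −0.08), with the leading-strand polymerase gene Pole (−2.05 ± 0.25) below and the origin recognition gene Orc6 above input (1.52 ± 0.11, lost with normexp). Mcm10 was at −1.53 ± 0.17 (lost with normexp). Its stem, with 8 of 10 genes lower and 1 higher (5 and 2 with median scaling), was seen in the data first. Nuclear pore genes were divided, 9 higher and 10 lower of 28 (14 and 8 with median scaling; relative median 0.42), with Nup93 (2.24 ± 0.12) above and Nup133 (−1.55 ± 0.18) below input.

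Of 29 kinesin genes 14 were lower (48.3%) and 2 higher (6.90%), against 43.5% and 21.2% of all genes. With median scaling 8 were lower and 4 higher, and the relative median was −0.12. Kif3a was at −2.54 ± 0.18 and Kif5c at 2.14 ± 0.11, the first a motor of cilia and the second of neurons. Of 18 tubulin and actin genes 10 were lower and 1 higher (6 and 2 with median scaling; relative median −0.11); Tuba1a was at −1.68 ± 0.12 and Tubb3 at 1.87 ± 0.25, the latter lost with normexp. Intraflagellar transport genes were a stem picked after the values were seen. They were lower in 11 of 13 cases and higher in 1 (8 and 1 with median scaling), with Ift46 at −1.71 ± 0.14. Centrosomal Cep genes were 5 higher and 12 lower of 30 (7 and 8 with median scaling; relative median 0.05). The relative medians of these lists turned sign with the processing, from −0.29 to 0.14 for kinesins, from −0.32 to 0.16 for tubulins and actins and from −0.17 to 0.32 for Cep genes over the settings tried.

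Long non-coding RNAs were higher less frequently than lower. RefSeq gene types were matched for 12955 of the 14670 genes, and 12664 of these were protein-coding, with 2848 higher and 5525 lower. Of 216 long non-coding RNA genes 10 were higher (4.63%) and 117 lower (54.2%), with a relative median of −0.43, against 22.5% and 43.6% of the protein-coding genes. With median scaling 21 were higher and 62 lower, and of the protein-coding genes 4058 and 2662. Their median input level was −1.69, below the 0.83 of protein-coding genes, so the classes also differ in signal. Meg3, an imprinted maternally expressed RNA, fell from 5.61, 5.75 and 5.40 to 2.86, 3.14 and 2.95 (−2.60 ± 0.16, adjusted p = 2.66e-05), and 1 further probe detected on all 6 arrays gave −2.36. Neat1, the scaffold of nuclear paraspeckles, fell from 4.87, 4.89 and 4.78 to 2.40, 2.65 and 2.73 (−2.25 ± 0.12). Firre, a nuclear RNA of the X chromosome, was at −2.40 ± 0.16 with a second probe at −2.44. These 3 were chosen after their values were seen. All 10 tested snoRNA host genes were lower (6 with median scaling; relative median −0.98), Snhg14 among them at −2.57 ± 0.34, a call that ended with normexp.

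Transcripts of the feeder cells were lower without exception among those called. Of 12 feeder fibroblast markers 9 were lower and 0 higher (4 and 0 with median scaling), with a relative median of −0.62, and their summed linear level was 174 to 221 on the inputs and 75.6 to 108 on the GFP IPs. No marker was at 0; 10 to 12 of the 12 were well above background on each input and all 12 on each GFP IP. Thy1, a surface protein of fibroblasts, fell from 4.79, 4.94 and 4.33 to 2.89, 3.36 and 2.62 (−1.73 ± 0.25, adjusted p = 0.00078), and S100a4, named after its values were seen, fell too (−1.39 ± 0.17, lost with normexp). Collagens, which fibroblasts make, were 21 lower and 0 higher of 26 (9 and 1 with median scaling; relative median −0.55), with Col18a1 at −2.13 ± 0.16. Of 4 primitive endoderm markers 0 were higher and 1 lower, and of 3 tested markers of cells that resemble the early embryo 1 was higher and 0 lower. In bulk samples the level of feeder RNA cannot tell fewer cells from less RNA per cell, an IP adds its own recovery step, and the part of feeder RNA in the lower lists was not tested.

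Some genes were seen on 1 side only. For 200 genes every GFP IP was well above background and no input was, in any probe of the gene, so only a bound on the fold is available; it was at least 4-fold for 13, of which 11 have a RefSeq symbol other than a Riken or Gm name. The genes named here and for the reverse case are from those with such a symbol. They were picked by detection on the same arrays, so the limma p describes them and supports nothing further. The bound is the mean of the bright group over a floor for the dim group, set on each array by the higher of the dim probe's signal and the lowest signal well above background. Cdk2, the kinase of entry into S phase, read −0.30, −0.58 and −0.39 on the GFP IPs and was at least 7.67-fold higher than input (adjusted p = 0.000183). Siah1a, a ubiquitin ligase gene, was at least 6.96-fold higher. Rassf3 (at least 7.27-fold), the Wnt receptor gene Fzd6 (at least 6.07-fold), the tight junction gene Ocln (at least 5.77-fold) and Bnip5 (at least 9.62-fold) had bounds of this size as well, as did Ccdc71l (at least 5.68-fold) and the lipid synthesis gene Gpat3 (at least 5.24-fold), whose limma test did not pass (adjusted p = 0.0551).

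The reverse held for 67 genes, with a bound of at least 4-fold for 38, of which 6 have a RefSeq symbol other than a Riken or Gm name. Hectd2, a ubiquitin ligase gene, read −1.89, −1.21 and −0.94 on the inputs and was at least 6.72-fold lower in the GFP IP (adjusted p = 3.57e-05). Trim55, a muscle RING finger gene, was at least 7.63-fold lower, although its inputs spread from −2.16 to −0.24. The oviduct glycoprotein gene Ovgp1 (at least 7.02-fold), Igsf1 (at least 4.62-fold), the non-coding RNA Sox2ot (at least 4.58-fold) and Serpini2 (at least 4.01-fold) followed among genes with a RefSeq symbol. Their count was sensitive to the scale: with median scaling 35 genes reached 4-fold above input and 20 below.

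The GFP IP was also set against the IP of PABP1, which binds the poly(A) tails of most mRNAs. In that contrast, which uses the same GFP arrays, 3459 of all tested genes were higher with GFP (23.6%) and 6983 lower (47.6%). The median gene stood at −0.68 here, so the balance of these calls depends on the scale too. The differences that follow are not relative to the median gene. Cyp51 and Kit were far above the PABP1 IP (3.92 ± 0.16 and 3.65 ± 0.23), as was Elavl1 (2.64 ± 0.17, adjusted p = 1.60e-05). Btg3 did not pass (0.00 ± 0.13, adjusted p = 0.988), and Lsm1 was lower with GFP than with PABP1 (−1.06 ± 0.17, adjusted p = 0.00111). At the low end Ndufb2 and H3c1 were below the PABP1 IP as well (−2.94 ± 0.22 and −2.51 ± 0.26), while Eif5b and Nol8 were above it (1.80 ± 0.38 and 2.14 ± 0.36), with PABP1 at −4.70 and −5.38 from input. Khsrp and H1f10 did not pass in this contrast (adjusted p = 0.124 and 0.879).

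Recovery also varied with abundance in the input. Genes were put into 10 bins by their level on input 1 alone, and differences were taken against inputs 2 and 3, so that the array that set the bins is not in the difference; the calls counted per bin use all 3 inputs. In the most abundant bin 9.07% of 1467 genes were higher and 70.8% lower, with a median difference of −0.91, or −0.40 relative to the median gene. The sixth bin had 25.1% higher, 42.7% lower and a median of −0.30, and the lowest bin 27.7%, 12.9% and −0.01. Genes not well above background on every input were tested only if all arrays of an IP group detected them. The values of the dimmest bins are therefore set in part by that filter and are no measure of recovery alone. Each GFP IP on its own gave the drop at the top, with medians of −0.84, −0.85 and −1.02 in the most abundant bin. In the dim bins GFP IP 2 stood apart from the others, at −0.12 in the second bin against −0.56 and −0.54. The cytosolic ribosomal, glycolysis and complex I lists had median input levels of 9.64, 5.78 and 6.04, against 0.51 for all genes, and how far their low recovery goes with level was not tested.

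**Figure D4:**
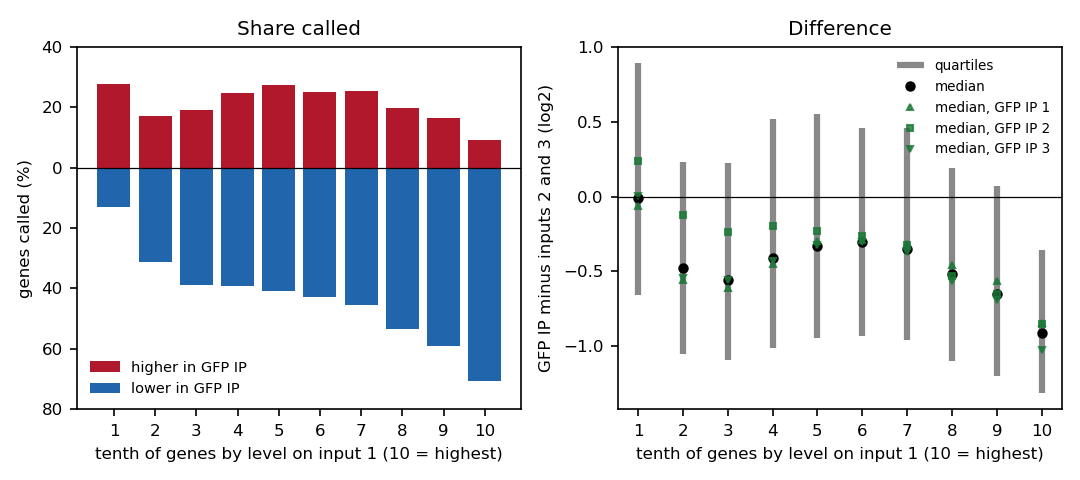
Left, share of genes called higher (red) or lower (blue) in the GFP IP (y axis, percent of 1467 genes) in 10 bins by level on input 1 (x axis, 10 is highest). Right, difference from inputs 2 and 3 (y axis, log2) in the same bins, with the median, quartiles and the median of each GFP IP; the most abundant bin lies at −0.91 and the sixth at −0.30.

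Probes of 1 gene did not always concur. Among genes called higher, 77.4% of 1108 other probes that were well above background on all 6 arrays had the same sign, and among genes called lower 79.9% of 1766. Their median difference was smaller than that of the probe standing for the gene, 0.86 against 1.16 for higher and −0.64 against −1.09 for lower genes. Where along the transcript these probes lie was not analysed here.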

How the data were processed

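Labelled RNA was hybridised to 1-colour Agilent arrays. Scanning gave the authors' deposited intensity values, which per the file headers come from Feature Extraction 9.1.3.1; its background-corrected processed signal was used, and the other deposited values used were flags for outlier spots, saturation and signal well above background. Processed intensities were taken to log2 with a pseudocount of 0, and the 75th percentile of each array was subtracted. Of 41174 probes, 30 with outlier spots were left out, and the brightest probe stood for a gene. Symbols and gene types came from RefSeq (GRCm38.p6), matched for 12955 of 14670 genes. Testing was limited to genes that were well above background on all arrays of 1 or more groups, with limma 3.58.1 (lmFit, eBayes, all 8 arrays, 5 residual degrees of freedom) in R 4.3.3 (data.table version 1.17.8), two-sided with Benjamini-Hochberg adjustment at 0.05; the fit was tested on simulated data. Figures used matplotlib 3.10.9 and Python 3.11.15.

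The members, the 44 gene lists and the tests were chosen with earlier results of these data known. Named genes are Dazl, the 20 highest and 20 lowest differences, the 2 highest and 2 lowest of a list, genes among the 8 largest bounds each way with a RefSeq symbol, and reference genes; apart from Dazl, bounds and reference genes they had to pass limma, be well above background on all 6 arrays, have a symbol other than a Riken or Gm name and keep their sign in other scalings and well detected probes. Genes chosen otherwise are said to be so. Replicate numbers did not pair the samples: the deviations of inputs and GFP IPs 1, 2 and 3 correlated at −0.29, 0.52 and 0.53 across genes, and pairs sharing a slide at 0.47 to 0.53. The authors' deposited table of group means and protein length were not analysed here. The values of 1 reference gene are not reported here.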

Additional observations from a re-analysis of the deposited data

How the results depend on the processing

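Counts of 3109 higher and 6380 lower genes kept within 1.5 times their size under all alternatives tried but 2. Scaling to the array median left 3118 genes lower, and normexp background correction with an offset of 50 left 581 higher and 962 lower. That offset is above the median intensities of the 6 arrays, which were 5.88 to 11.5. Quantile normalization gave 3684 and 5244, centring 3372 and 5818, 3573 and 5520 came from a percentile over probes detected on all arrays, 2672 and 6473 without a filter, 2655 and 5784 over genes detected on all 6 arrays, 3070 and 6397 with these 6 arrays alone, and 2650 and 6176 when probes of a gene were averaged, where 40 higher and 48 lower genes changed direction. Slide as a block gave 3572 and 7502, slide 1 by itself 2770 and 5510, and slide 2 by itself 2713 and 5892. With the replicate block, which does not pair samples here, they were 3096 and 6361. Leaving out 1 array gave 2734 to 3074 higher and 5335 to 6688 lower genes. Relative medians of 30 of 44 lists kept their sign in every setting. Those of 14 turned under some setting: proteasome, cytosolic ribosomal proteins, kinesins, tubulins and actins, Zfp, replication, primitive endoderm, initiation factors, solute carriers, microRNA, Cep, core spliceosome, vacuolar ATPase and Usp. Of the genes followed across settings, 25 lost their call with normexp. For level bins only centring and detection on all 6 arrays were run, and for gene types only median scaling and single slides; the other planned settings were not run. With 3 arrays a group, small differences in dim genes are beyond the precision; the cause of the normexp loss was not tested.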
